A study of Homo sapiens with 16 samples.

Results

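Metallothioneins are small cysteine-rich proteins that bind zinc and copper in the cell and take up toxic metals such as cadmium. The 8 metallothionein genes described here were MT1A, MT1E, MT1F, MT1G, MT1H, MT1M, MT1X and MT2A, out of 59428 genes in the count table. They were selected by symbol as genes of the metallothionein cluster, because MT1E and MT2A differed strongly between the 2 cell lines of the study. The values that chose them are the levels in the 2 lines, so the difference between the lines is given below as a description, without a test. All 8 genes had at least 1 count.

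RNA was measured in OVCAR3, an ovarian cancer line with wild-type BRCA1, and in UWB1.289, a line with a BRCA1 mutation. Each line received olaparib, an inhibitor of PARP enzymes, or its solvent DMSO for 96 h, with 4 replicates in each of the 4 groups and 16 libraries in all. OVCAR3 received olaparib at 7.5 µM, and for UWB1.289 the concentration was 3.5 µM. OVCAR3 was grown in RPMI1640 with fetal bovine serum and bovine insulin, and UWB1.289 in a mixture of MEGM Bulletkit medium and RPMI1640 with less serum. Each BRCA1 status was represented by 1 cell line, so that line, BRCA1 status, medium and olaparib concentration cannot be told apart in any comparison between the lines.

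Transcription of the MT1 and MT2 genes rises when the cell takes up zinc or cadmium. The zinc-sensing factor MTF1 then binds short metal response elements in their promoters, and glucocorticoid hormones and oxidative stress can raise the genes as well. MT2A is the main MT2 gene of human cells, the MT1 genes encode closely related isoforms with the same metal-binding role, MT3 is best known from the brain, and MT4 from stratified epithelia.

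The 8 genes lie on chromosome 16 (GRCh38, GENCODE release 44) within 75.6 kb. In the order of their coordinates MT2A (56608584 to 56609497) is followed by MT1E (56625475 to 56627112), MT1M (56632659 to 56633981), MT1A (56638666 to 56640087), MT1F (56657731 to 56660698), MT1G (56666730 to 56668065), MT1H (56669814 to 56671129) and MT1X (56682470 to 56684196). MT1G is on the minus strand and the other 7 genes are on the plus strand. MT1L, a pseudogene of the same cluster, lies between MT2A and MT1E (56617563 to 56618680, plus strand), and MT4 and MT3 lie before MT2A.

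Promoter sequences of 3 of the 8 genes, MT2A, MT1H and MT1X, were available from RefSeq (GRCh38.p14, plus strand, 250 bases before and 50 bases after the gene start). They are shown because they hold the sequence through which metals act on these genes, in 1 gene with abundant RNA, 1 gene with almost none and 1 gene with a low level in both lines. Capitals mark the metal response element cores TGCACNC and TGCGCNC on either strand, in a search for these letters alone.
MT2A, chr16:56608334-56608633: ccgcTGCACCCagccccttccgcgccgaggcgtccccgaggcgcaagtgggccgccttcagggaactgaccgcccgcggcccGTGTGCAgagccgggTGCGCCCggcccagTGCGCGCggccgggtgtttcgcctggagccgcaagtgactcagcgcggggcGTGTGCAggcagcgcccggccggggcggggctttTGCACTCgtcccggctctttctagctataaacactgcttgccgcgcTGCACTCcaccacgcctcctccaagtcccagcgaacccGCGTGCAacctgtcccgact
MT1H, chr16:56669564-56669863: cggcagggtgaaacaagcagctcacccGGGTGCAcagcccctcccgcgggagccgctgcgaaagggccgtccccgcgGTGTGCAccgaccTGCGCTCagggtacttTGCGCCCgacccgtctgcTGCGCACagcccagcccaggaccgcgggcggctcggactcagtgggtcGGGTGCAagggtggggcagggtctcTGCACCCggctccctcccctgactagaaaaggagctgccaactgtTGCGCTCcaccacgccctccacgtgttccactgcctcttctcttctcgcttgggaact
MT1X, chr16:56682220-56682519: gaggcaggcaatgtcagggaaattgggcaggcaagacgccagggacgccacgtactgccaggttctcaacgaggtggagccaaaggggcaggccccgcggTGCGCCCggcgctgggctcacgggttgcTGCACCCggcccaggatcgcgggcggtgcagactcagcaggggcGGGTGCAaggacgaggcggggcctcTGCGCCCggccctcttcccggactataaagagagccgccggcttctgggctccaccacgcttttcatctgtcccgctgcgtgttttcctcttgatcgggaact

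The windows of MT2A and MT1H held 8 cores each, and that of MT1X held 4. Of 35116 promoter windows of the same length, 29.6% held at least 1 core, 0.601% held at least 4 and 0.0199% (7 windows) held at least 8, with MT2A and MT1H among these 7. A TATAAA sequence was present before the starts of MT2A and MT1X and not found in the window of MT1H, and 11.5% of all windows held it. The GC box GGGCGG, in either orientation, occurred 2 times in MT2A and MT1X and 1 time in MT1H, and 45% of all windows held it. These matches describe the letters of the windows and do not show that a factor was bound. The number of cores did not follow the RNA level, since MT1H had as many cores as MT2A and at most 3 counts in any library.

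Total counts per library ranged from 5599571 to 7730228 with a median of 6413980, and no library stood apart in depth. Levels are given as CPM, the count of a gene scaled to a common library size with TMM factors from all 16 libraries. A group is called at the floor for a gene when none of its libraries held more than 3 counts. Of 12 markers of serous ovarian carcinoma with DMSO, 4 were higher in all UWB1.289 libraries, 7 were higher in all OVCAR3 libraries and 1 overlapped. Of all genes with sufficient counts, 69.4% did not overlap between the lines and 34.5% had UWB1.289 above. All 12 were detected in OVCAR3, and WT1 was the 1 marker without a count in UWB1.289 (121 CPM in OVCAR3), while their summed level was 7558 to 8156 CPM in UWB1.289 and 4307 to 4561 CPM in OVCAR3. The summed level of 12 fibroblast, endothelial and immune markers was between 16.2 and 23.1 CPM in UWB1.289 and between 24.7 and 32.8 CPM in OVCAR3, both with DMSO. COL1A1 made up most of the OVCAR3 sum (24.3 CPM, 630 counts in 4 libraries against 101 in UWB1.289), whereas PTPRC (6.13 against 0.232 CPM), CDH5 (100 counts against 1 in 4 libraries each) and PECAM1 (3.35 against 0 CPM) were higher in UWB1.289. COL3A1 and LUM had no count in either line, and the part of these markers in the metallothionein levels was not tested.

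MT2A had the most counts of the 8 genes in every group. In UWB1.289 its 4 DMSO libraries had 2626, 2799, 3017 and 2521 CPM, and its 4 olaparib libraries 2568, 2781, 2670 and 2574 CPM. In OVCAR3 the DMSO libraries had 89.4, 102, 103 and 110 CPM, and the olaparib libraries 115, 124, 118 and 101 CPM. All UWB1.289 libraries lay far above all OVCAR3 libraries, while olaparib and DMSO libraries overlapped within each line. The mean level with DMSO was 2741 ± 217 CPM in UWB1.289 and 101 ± 8.52 CPM in OVCAR3 (SD, n = 4), a ratio of 27.1. With olaparib the ratio was 23.1.

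MT1E RNA was detected in UWB1.289 and not in OVCAR3. In UWB1.289 the DMSO libraries had 754, 892, 788 and 741 CPM, and the olaparib libraries 628, 754, 703 and 714 CPM. None of the 8 OVCAR3 libraries had a single MT1E count, and a count of 0 allows up to 3 counts in a library. The UWB1.289 mean with DMSO was 794 ± 68.4 CPM (SD, n = 4). With each OVCAR3 library set at 3 counts, UWB1.289 had an at least 1688-fold higher MT1E level. For olaparib-treated cells the same bound was at least 1583-fold. The intervals and floors given here cover counting error only.

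MT1A and MT1M showed the same distribution at lower levels. MT1A reached 127, 147, 197 and 149 CPM in the DMSO libraries and 167, 242, 224 and 196 CPM in the olaparib libraries of UWB1.289, from 846 to 1401 counts per library. The 8 OVCAR3 libraries held between 0 and 5 MT1A counts each. From the summed counts with DMSO, MT1A was 992-fold higher in UWB1.289, with a counting interval (95%) of 387 to 3642. MT1A was at the floor in OVCAR3 with DMSO, so this fold rests on 4 OVCAR3 counts in all. MT1M reached 33.1, 48.4, 41.6 and 32.5 CPM with DMSO and 63.4, 73.3, 66.3 and 59.9 CPM with olaparib in UWB1.289. The OVCAR3 libraries had between 0 and 8 MT1M counts. The corresponding MT1M ratio with DMSO was 165 (75.3 to 449), with OVCAR3 again at the floor and 6 counts there in all. Neither gene overlapped between the lines in any treatment.

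MT1G was a low-count gene seen almost only in UWB1.289. Its counts were 25, 4, 15 and 17 in the DMSO libraries and 34, 30, 16 and 34 in the olaparib libraries of that line, while OVCAR3 had no count apart from 3 in 1 olaparib library. With DMSO the UWB1.289 level of MT1G was higher by a factor of at least 4.81, and a level of this size carries a large counting error. MT1H was at the floor in all 4 groups, with 0 to 3 counts in the UWB1.289 libraries and none in OVCAR3, so that no fold is given for it.

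MT1F and MT1X were detected at similar, low levels in both lines. With DMSO, MT1F had 12.6, 14.3, 9.07 and 9.61 CPM in UWB1.289 and 23.4, 16.6, 17.9 and 15.3 CPM in OVCAR3. MT1X had 79, 66, 63 and 72 counts (9.48 to 11.9 CPM) in UWB1.289 and 88, 75, 89 and 96 counts (12.9 to 14.5 CPM) in OVCAR3. Here the order of the lines was opposite to that of the other members, with all OVCAR3 DMSO libraries above all UWB1.289 DMSO libraries. The ratios of the mean levels, UWB1.289 to OVCAR3, were 0.623 for MT1F (counting interval on the totals 0.535 to 0.719) and 0.782 for MT1X (0.663 to 0.915). With olaparib both genes overlapped between the lines, with ratios of 0.997 and 1.39.

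**Figure D1:**
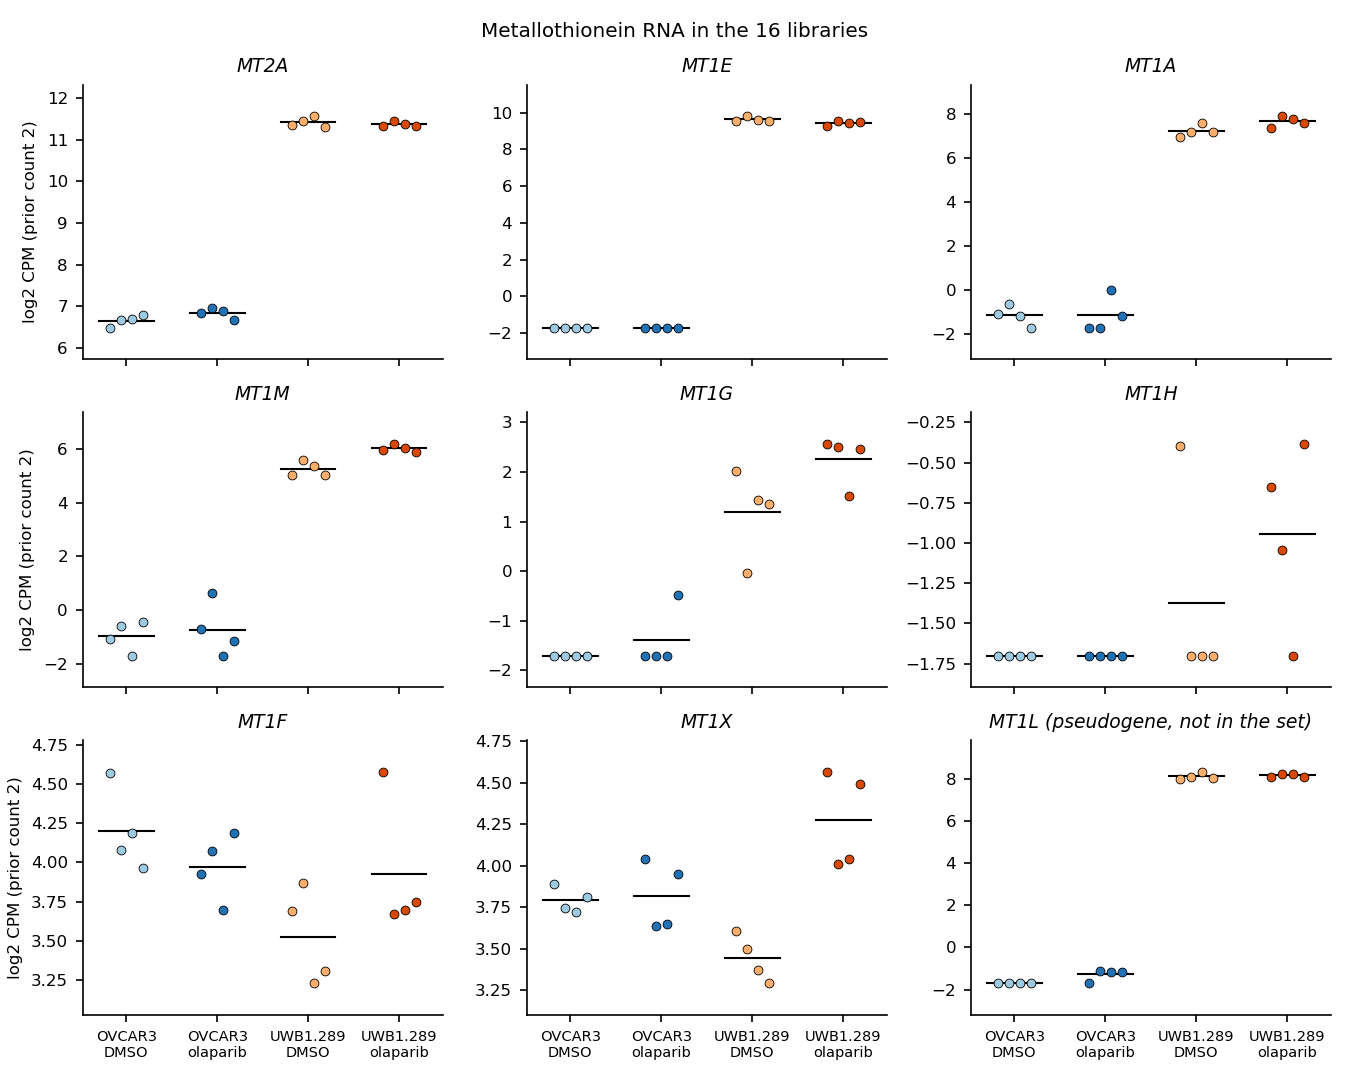
Level of each of the 8 metallothioneins and of the pseudogene MT1L in the 16 libraries (log2 CPM with a prior count of 2, n = 4 per group; each point is 1 library, the bar is the group mean, and each panel has its own vertical range). MT2A, MT1E, MT1A, MT1M and MT1L separate the lines widely, whereas MT1F and MT1X lie in the same range in both.

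Of the 8 genes, 7 did not overlap between the lines with DMSO, 5 with UWB1.289 above and 2 with OVCAR3 above. The lines differed in most genes: of 13366 genes with sufficient counts in the DMSO libraries, 69.4% did not overlap and 34.5% had UWB1.289 above. Of the 8 members 6, all but MT1G and MT1H, belonged to these 13366 genes, and their median difference was 5.49 on the log2 CPM scale compared with -0.02 over all 13366. This set was chosen on that difference, so the figures only describe it.

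Position along the chromosome was compared with these differences. The genes with a large excess in UWB1.289 and more than 100 counts per library there (MT2A, MT1E, MT1M and MT1A, and the pseudogene MT1L) occupied 31.5 kb from the start of MT2A to the end of MT1A. Within this stretch MT1JP had at most a few counts in total. After a distance of 17.6 kb follow MT1F, MT1G, MT1H and MT1X, of which MT1F and MT1X were slightly lower in UWB1.289, MT1G was higher in UWB1.289 at 4 to 34 counts per library, and MT1H was at the floor. MT3, before MT2A, was lower in UWB1.289 with DMSO (0.253 against 1.15 CPM). This grouping was recognized after the values were seen.

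**Figure D2:**
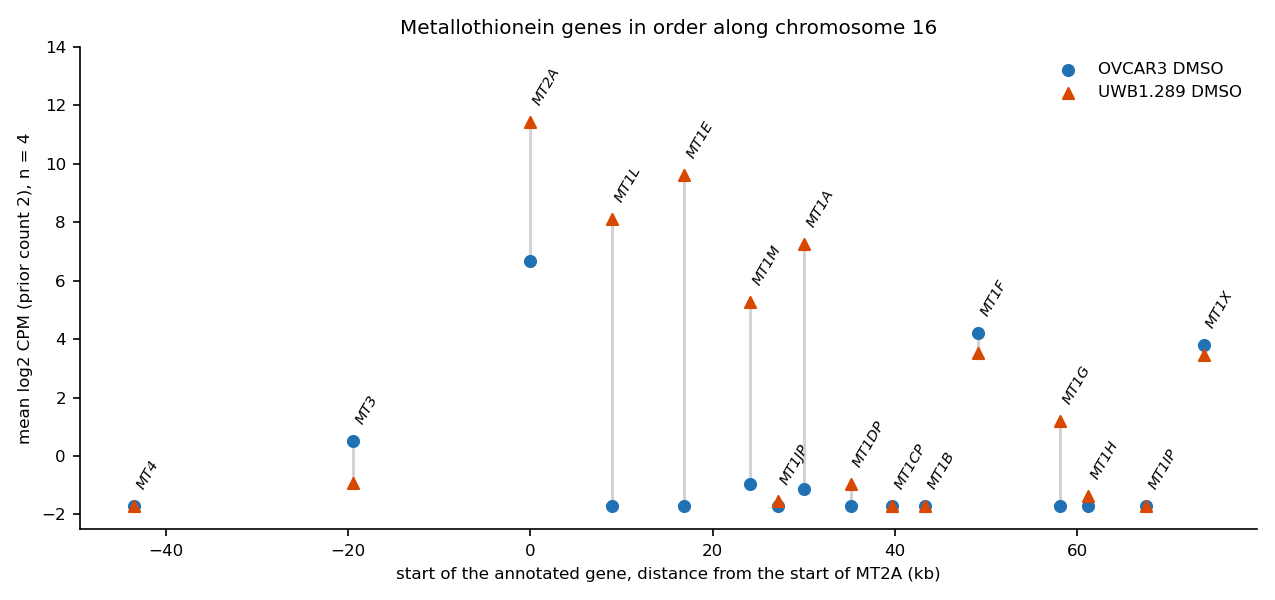
Mean log2 CPM (prior count 2, n = 4) of the metallothionein genes on chromosome 16 in the DMSO libraries, against the distance of the annotated gene start from the start of MT2A in kb; a grey line joins the 2 lines for each gene. From MT2A to MT1A, 31.5 kb, the UWB1.289 level is far above that of OVCAR3 for every gene but MT1JP, and at MT1F and MT1X it is slightly below.

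Relative to transcript length, MT2A also led the family. In UWB1.289 with DMSO the level was 6835 CPM per kb of the canonical transcript for MT2A, 1064 for MT1E, 391 for MT1A, 97.7 for MT1M, 26.8 for MT1F and 26.2 for MT1X. In OVCAR3 with DMSO it was 252 for MT2A, 43.1 for MT1F and 33.5 for MT1X, again in CPM per kb. Among the 8 members the second place after MT2A thus went to MT1E in UWB1.289 and to MT1F in OVCAR3. The pseudogene MT1L stood at 1489 CPM per kb in UWB1.289, above MT1E, relative to an annotated transcript of 186 bases. Reads of these libraries come from the 3′ end, so that counts need not grow with transcript length.

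As a family, the 8 members and 12 other metallothionein genes and pseudogenes, MT1L and MT3 among them, were summed. They took 0.395% ± 0.0277 of all counts in UWB1.289 with DMSO and 0.395% ± 0.0211 with olaparib (SD, n = 4). In OVCAR3 the share was 0.0135% ± 4.75e-04 and 0.0149% ± 7.29e-04. MT2A made up 68.0% of the family counts in UWB1.289 with DMSO and 74.8% in OVCAR3 with DMSO. MT1E, MT1L and MT1A followed in UWB1.289 with 19.7%, 6.87% and 3.83%, and MT1F and MT1X in OVCAR3 with 13.7% and 10.1%. Beyond MT2A, the family total was made up of different genes in the 2 lines.

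The metallothioneins resemble each other in sequence, which bears on how reads are assigned to them. Over the last 300 bases of the canonical transcripts, identity was 91.2% between MT1E and MT1M, 89.5% between MT1A and MT2A and 92.8% between MT1G and MT1H. No stretch of 100 bases there was shared with another annotated gene for MT1A, MT1E, MT1F, MT1G, MT1M, MT1X or MT2A. For stretches of 50 bases the shared part ranged from 1.99% in MT1E to 30.7% in MT1X. How reads with several matches were counted is not given in the sources used here, so low counts of one member beside a very abundant one are uncertain. In UWB1.289 this concerns MT1G and MT1H and also MT1F and MT1X, which lay at 9.07 to 23.6 CPM beside MT2A at 2521 to 3017 CPM, and MT1X shares stretches of 50 bases with MT2A, MT1A and MT1M among others. Every stretch of 50 bases in the annotated MT1L transcript was shared with another annotated gene, so that its assignment is uncertain too.

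Olaparib was compared with DMSO within each line to ask how PARP inhibition altered expression. In UWB1.289 MT1X, MT1M, MT1A and MT1G rose, and no member fell in the fit without a replicate block. With the block, MT1E fell as well (adjusted p = 0.0632). The test covered 7 members, all but MT1H. The increase of these 4 of 7 compares with 7.77% of 12748 tested genes that were higher, 6.10% that were lower and 13.9% that changed in either direction (edgeR quasi-likelihood test, adjusted p below 0.1). Of the 4, MT1G (4 to 25 counts per DMSO library) reached the count filter only together with the olaparib libraries, in which it was higher. The median log2 fold change of the 7 members was 0.44, and that of all tested genes was -0.004.

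MT1X increased from 10.6 ± 1.06 to 19.4 ± 3.96 CPM (SD, n = 4). The olaparib libraries had 23.4, 15.8, 16.2 and 22.2 CPM, all above the 9.48 to 11.9 CPM of the DMSO libraries. The estimate was 0.88 on the log2 scale with a standard error of 0.162 (adjusted p = 9.36e-04). MT1M increased from 38.9 ± 7.58 to 65.7 ± 5.68 CPM, and again every olaparib library lay above every DMSO library. For MT1M the log2 fold change and SE were 0.76 ± 0.121 (adjusted p = 1.61e-04). MT1M and MT1X were the 2 members without overlap between treatments, which held for 14.7% of all tested genes.

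MT1A increased from 155 ± 29.9 to 207 ± 32.8 CPM, a log2 fold change of 0.42 ± 0.119 (SE, adjusted p = 0.0268). Its olaparib libraries (167 to 242 CPM) overlapped the DMSO libraries (127 to 197 CPM), and without DMSO replicate 1 it no longer passed (adjusted p = 0.106). MT1G had the largest estimate, 1.02 ± 0.366 on the log2 scale (SE, adjusted p = 0.0836), and was the 1 member past the rule of more than 2-fold with a mean count over 10, which 2.21% of all tested genes met. It rests on 4 to 34 counts per library. MT1G lost its call when any one of 6 of the 8 libraries was left out, the exceptions being DMSO replicate 1 and olaparib replicate 3. Over all alternatives its adjusted p lay between 0.0328 and 0.218.

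The most abundant members did not show this increase. MT2A was at 2741 ± 217 CPM with DMSO and 2648 ± 100 CPM with olaparib, which corresponds to -0.05 ± 0.0746 on the log2 scale (SE, adjusted p = 0.761). MT1E was at 794 ± 68.4 and 700 (699.8) ± 52.7 CPM, with a log2 fold change of -0.18 ± 0.0808 (SE, adjusted p = 0.180). With the replicate number as a block, since same-numbered UWB1.289 libraries deviated together, the same log2 fold change of -0.18 of MT1E had an adjusted p of 0.0632 and passed the threshold. MT1F had a log2 fold change of 0.44 ± 0.206 (SE, adjusted p = 0.199), with olaparib replicate 1 at 23.6 CPM and the others between 12.4 and 13.1 CPM. Without that replicate the estimate was 0.17.

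The change in composition appeared within single libraries. Per 100 MT1E counts, UWB1.289 had 4.39, 5.43, 5.27 and 4.39 MT1M counts with DMSO and 10.1, 9.72, 9.42 and 8.39 with olaparib, without overlap. Per 100 MT2A counts there were 4.84, 5.24, 6.54 and 5.89 MT1A counts with DMSO and 6.50, 8.69, 8.40 and 7.63 with olaparib, where 1 olaparib library fell within the DMSO range. These ratios do not depend on the scaling between libraries.

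In OVCAR3 no member passed the threshold. Only MT1F, MT1X and MT2A had enough counts to be tested. Of 13031 tested genes 31.5% changed in this line, 5.23% met the 2-fold rule and 25.7% did not overlap between treatments, and none of the 3 members did any of these. MT2A had an estimate of 0.18 ± 0.0869 on the log2 scale (SE, adjusted p = 0.137), from 101 ± 8.52 to 115 ± 9.79 CPM (SD, n = 4), and was the 1 member with an unadjusted p below 0.05. Its call depended on the library set: without olaparib replicate 4, the lowest of the treated libraries, the log2 fold change was 0.24 with an adjusted p of 0.0252. Over all genes, this library also differed more from the other treated libraries than those did from each other. Its chi-square per gene against each of them, a measure of the difference in counts, was 7.69 to 11.8. Among those other libraries it was 3.45 to 4.38. MT1X stayed at 13.6 ± 0.74 and 13.9 ± 2.04 CPM (log2 fold change 0.04 ± 0.150, SE, adjusted p = 0.875). MT1F was at 18.3 ± 3.57 and 15.5 ± 2.26 CPM (log2 fold change -0.23 ± 0.158, SE, adjusted p = 0.307). MT1A, MT1G and MT1M remained at no more than 8 counts per library and MT1E and MT1H at 0 with olaparib. DESeq2 called none of the 3 tested members in OVCAR3 either.

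**Figure D3:**
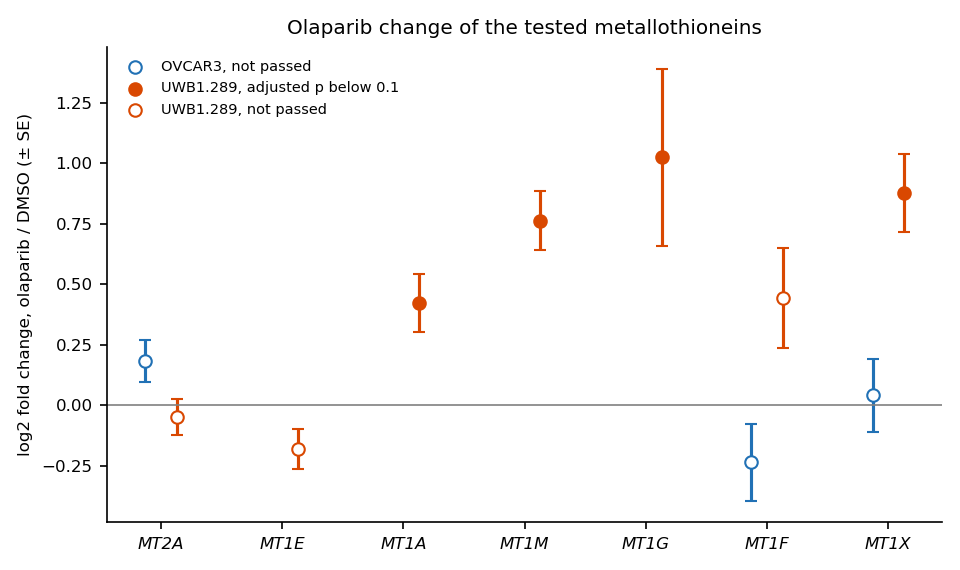
Log2 fold change of olaparib against DMSO with its standard error for each tested member, in OVCAR3 (3 genes) and UWB1.289 (7 genes); filled points passed an adjusted p below 0.1. MT1A, MT1M, MT1G and MT1X are filled in UWB1.289, and no OVCAR3 point is filled.

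The difference of the olaparib change between the lines was tested itself, in 1 model over the 16 libraries. Of the 3 members with enough counts in both lines, MT1X differed, with a change that was larger in UWB1.289 by a log2 value of 0.84 ± 0.222 (SE, adjusted p = 0.0165). This compares with 10.9% of 14243 genes that differed in either direction, 5.09% with a higher and 5.83% with a lower change in UWB1.289. MT1X did not reach the 2-fold rule, which 3.66% of all genes met. MT1X was the lowest in UWB1.289 with DMSO and the highest in UWB1.289 with olaparib, while both OVCAR3 groups lay between and overlapped each other. For MT1F the difference was 0.68 ± 0.276 (adjusted p = 0.141), which passed with the replicate block (0.66, adjusted p = 0.0995). For MT2A it was -0.23 ± 0.110 (adjusted p = 0.229), which passed without OVCAR3 olaparib replicate 4 (-0.29, adjusted p = 0.0939). For MT1A and MT1M the difference was -0.03 ± 0.489 and 0.01 ± 0.375 (SE, adjusted p of at least 0.996), on 0 to 8 counts per OVCAR3 library. MT1G had an adjusted p of 0.549, with 3 counts in OVCAR3 in all. For MT1E, without a count in OVCAR3, no difference of change could be estimated.

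Across the 4 groups, MT2A and MT1E had their highest mean in UWB1.289 with DMSO, followed by UWB1.289 with olaparib, with overlapping libraries. For MT1A, MT1M and MT1G the order of these 2 groups was the opposite, and of the 3 genes only MT1M had no overlap between them. In OVCAR3 MT2A was higher with olaparib than with DMSO, with overlap. For MT1F the order was OVCAR3 with DMSO, OVCAR3 with olaparib, UWB1.289 with olaparib and UWB1.289 with DMSO, in which each neighbouring pair overlapped.

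Among the 8 UWB1.289 libraries, the log2 CPM of 7 members and MT1L was compared pair by pair after subtracting the group means. In the 10 pairs among MT2A, MT1L, MT1E, MT1M and MT1A, Pearson's r lay between 0.335 and 0.945. The highest values were 0.945 for MT1A and MT1L and 0.881 for MT2A and MT1L. In the 3 pairs among MT1F, MT1G and MT1X, r was -0.07 for MT1F and MT1G, 0.28 for MT1G and MT1X and 0.72 for MT1F and MT1X. In the 15 pairs between these sets, r lay between -0.772 (MT1A and MT1F) and 0.0906 (MT1F and MT1M). The division into these sets was made after the values were seen, and the values describe 8 libraries that share their depth and scaling.

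Other metallothioneins were largely silent. The pseudogene MT1L had 254, 270, 321 and 263 CPM with DMSO and 268, 303, 300 and 269 CPM with olaparib in UWB1.289. In OVCAR3 it had no count with DMSO and at most 1 count per library with olaparib. With DMSO the UWB1.289 level was higher by a factor of at least 589. Olaparib left MT1L in UWB1.289 with an estimate of 0.04 ± 0.0852 (log2, SE, adjusted p = 0.820). With DMSO, MT3 was lower in UWB1.289, at 0, 1, 2 and 4 counts per library against 4, 7, 9 and 10 in OVCAR3. With olaparib it overlapped between the lines (0.56 against 1.10 CPM). MT1DP, MT1JP, MT1P1, MT1P3 and MT1XP1 had few counts, and MT1B, MT1CP, MT1HL1, MT1IP and MT4 had none. MT1L was the 1 gene of these 12 that could be tested.

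Genes of zinc transport and sensing were mixed between the lines. Of 19 such genes compared with DMSO, 5 were higher in all UWB1.289 libraries, 8 were higher in all OVCAR3 libraries and 6 overlapped, with a median difference of -0.25 on the log2 CPM scale. Over all genes with sufficient counts, 69.4% did not overlap and 34.5% had UWB1.289 above. MTF1, the factor that senses zinc, had 11.1 CPM in UWB1.289 and 35.1 CPM in OVCAR3. This order was opposite to that of MT2A, MT1E, MT1A, MT1M and MT1G and the same as that of MT1F and MT1X. The part of MTF1 in the metallothionein levels was not tested. SLC30A1, the zinc exporter of the plasma membrane, was at 20.6 and 19.6 CPM and overlapped.

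With olaparib, 2 of 17 tested zinc genes rose in UWB1.289 and none fell, where 7.77% of all tested genes were higher and 6.10% lower. MTF1 rose by a log2 value of 0.47 ± 0.156 (SE, adjusted p = 0.0617) and the zinc importer SLC39A6 by 0.29 ± 0.0912 (adjusted p = 0.0508). SLC30A1 had a log2 fold change of 0.04 (adjusted p = 0.915). In OVCAR3 2 of 19 rose, the importers SLC39A8 (1.01, adjusted p = 4.49e-06) and SLC39A14 (0.38, adjusted p = 0.0709), and 2 fell, SLC39A11 (-0.84, adjusted p = 1.49e-05) and SLC39A13 (-0.40, adjusted p = 0.0718), all as log2 fold changes. For comparison, 31.5% of all genes tested in OVCAR3 were called in either direction. The change differed between the lines for SLC39A6, SLC39A8 and SLC39A11, by 0.33, -1.26 and 0.72. Such a difference passed for 10.9% of all genes tested for it, in either direction.

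Copper genes were mixed between the lines. With DMSO 3 of 8 were higher in UWB1.289, 4 were higher in OVCAR3 and 1 overlapped, with a median difference of -0.40. Over all genes, 69.4% did not overlap and 34.5% had UWB1.289 above. None of 8 tested genes was called in UWB1.289 with olaparib, against 13.9% of all genes. In OVCAR3 2 of 7 were called, against 31.5% of all genes, of which the copper-transporting ATPase ATP7A fell (log2 fold change -0.73, adjusted p = 0.00737) and the copper-zinc superoxide dismutase SOD1 rose (0.27, adjusted p = 0.00691). STEAP3, a metalloreductase gene, had 0 to 5 counts per OVCAR3 DMSO library and 5 to 15 with olaparib, too few for the test in OVCAR3. It entered the interaction test through its UWB1.289 counts. Its change differed between the lines by -2.06 (adjusted p = 0.0333), which rests on these low OVCAR3 counts. Of all genes tested for this difference, 10.9% passed in either direction.

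Of 12 glucocorticoid-responsive genes, 7 were higher in all UWB1.289 DMSO libraries, 1 was higher in OVCAR3 and 4 overlapped, with a median difference of 0.48. Over all genes, 69.4% did not overlap and 34.5% had UWB1.289 above. FKBP5, a co-chaperone of the glucocorticoid receptor, was at 27.8 and 16.3 CPM in UWB1.289 and OVCAR3, and TSC22D3 at 65.1 and 43.2 CPM. The receptor gene NR3C1 was at 30.7 and 28.4 CPM and overlapped. The part of these genes in the metallothionein difference was not tested. With olaparib in UWB1.289, 3 of 12 rose, FKBP5 (log2 fold change 0.35, adjusted p = 0.0946), TSC22D3 (0.37, adjusted p = 0.0496) and the phosphatase gene DUSP1 (0.94, adjusted p = 0.0122), and none fell. Of all genes tested in that line, 7.77% were higher and 6.10% were lower. In OVCAR3 FKBP5 (0.66, adjusted p = 7.88e-04) and ERRFI1 (0.65, adjusted p = 0.00236) rose and CRISPLD2 fell (-1.05, adjusted p = 1.03e-04) among 11 tested. For comparison, 31.5% of all genes tested in OVCAR3 were called in either direction. The change of TSC22D3 and of CRISPLD2 was higher in UWB1.289 than in OVCAR3, by 0.53 and 1.02. Such a difference between the lines passed for 10.9% of all genes tested for it, in either direction.

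Of 10 metal and oxidative stress genes, 3 rose with olaparib in OVCAR3, where 15.5% of all tested genes were higher, and none of 10 was called in UWB1.289, where 7.77% were higher. The 3 were HMOX1, the haem oxygenase induced by metals (log2 fold change 0.97, adjusted p = 0.0661), GCLM of glutathione synthesis (0.43, adjusted p = 0.0264) and the autophagy receptor gene SQSTM1 (0.55, adjusted p = 3.32e-05). The difference between the lines itself passed for GCLM (-0.41), SQSTM1 (-0.42) and the cystine transporter gene SLC7A11 (0.47). For HMOX1 it was -0.89 with an adjusted p of 0.318. Of all genes tested for this difference, 10.9% passed in either direction. With DMSO, 6 of 10 of these genes were higher in UWB1.289, 2 were higher in OVCAR3 and 2 overlapped, with a median difference of 0.55. Over all genes, 69.4% did not overlap and 34.5% had UWB1.289 above.

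Genes flanking the cluster on chromosome 16 were also compared. With DMSO 6 of 9 were higher in all UWB1.289 libraries, none in all OVCAR3 libraries, and 3 overlapped. Of all genes with sufficient counts, 69.4% did not overlap and 34.5% had UWB1.289 above. The median difference of the neighbours was 1.33, and that of the 6 members with sufficient counts was 5.49. The members were chosen on this difference, and MT1A, MT1E and MT1M had sufficient counts only through UWB1.289. These medians only describe the genes. OGFOD1 before the cluster was at 97.8 and 36.2 CPM in UWB1.289 and OVCAR3, and the nucleoporin gene NUP93 after it at 217 and 51.6 CPM. With olaparib in UWB1.289, 3 of 9 rose, OGFOD1 (log2 fold change 0.32), HERPUD1 (0.40) and NLRC5 (2.26), and GNAO1 fell (-0.76). The NLRC5 estimate rests on low counts, 4 to 9 per UWB1.289 DMSO library and 21 to 31 per olaparib library. Of all genes tested in UWB1.289, 7.77% were higher and 6.10% were lower. In OVCAR3 OGFOD1 and NUP93 rose among 7 tested, both by 0.33, where 15.5% of all tested genes were higher.

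**Figure D4:**
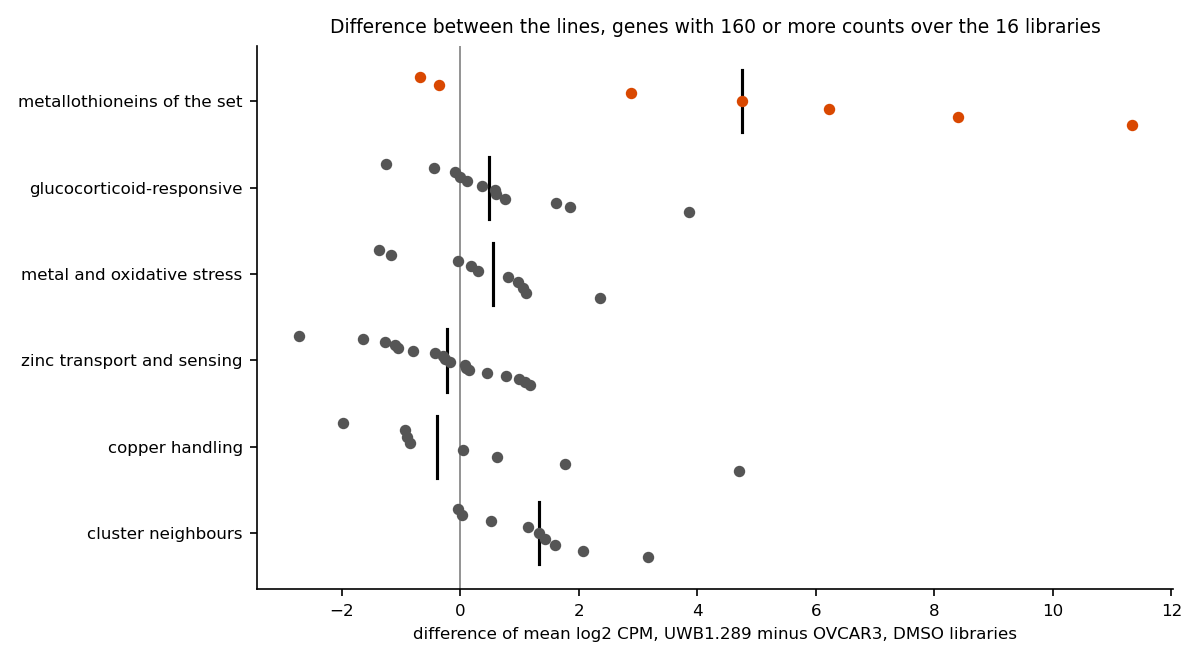
Difference of mean log2 CPM between UWB1.289 and OVCAR3 with DMSO for the genes of each list with at least 160 counts over the 16 libraries; each point is 1 gene, and the black bar is the median of the list. The 7 members plotted have a median of 4.76 and reach from slightly below 0 to 11.3, while the medians of the other lists lie between -0.40 and 1.33. The members were chosen on this difference, so their distance from the other lists is only a description.

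Genes with the profile most like that of MT2A over the 16 libraries, by Pearson's r of log2 CPM, were NDN, CCND2, AJAP1, TSPYL5 and SFTA1P, with r from 0.9985 to 0.9988. For MT1E they were NDN, CELF2, TSPYL5, SFTA1P and CCND2, with r from 0.9995 to 0.9998. All of these had at most 1 count in any OVCAR3 library and at least 225 counts in any UWB1.289 library, so that the likeness reflects the 2 clusters of libraries formed by the lines. After subtraction of the group means the closest genes were different. They included OPA1 (r = 0.836), SLC25A43, E2F4 and TMED7 for MT2A, and LGALS3 (r = 0.863), TMEM231, AIG1, CNIH3-AS2 and TMEM8B for MT1E. No gene was in both of these lists. MT1E had no count in OVCAR3, so its values rest on variation among the UWB1.289 libraries alone. For MT2A they describe 16 libraries. All are the highest values picked from the genes with sufficient counts, so they are only descriptions.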

How the data were processed

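RNA libraries were made with the QuantSeq 3′ mRNA kit, in which reads derive from transcript ends. The authors used BBDuk for trimming, STAR 2.7.9a in 2-pass mode for alignment to hg38, and featureCounts 2.0.0 with GENCODE release 38 for counting. The deposited values are raw counts for 59428 genes in 16 libraries. The settings for strand and for reads with several matches are not given in the sources used here. Samples were grouped by the line and treatment in their labels. No 2 of the 24 library pairs within groups were identical. Whether replicates were separate cultures is not stated, so p-values measure the spread between these libraries, which may be technical.

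Counts were TMM-scaled and tested in R 4.3.3 with edgeR 4.0.16 (filterByExpr, quasi-likelihood F test, treatment as the only term, Benjamini-Hochberg adjustment over all tested genes, calls at an adjusted p below 0.1) in each line on its own. The interaction was fitted over 16 libraries. The standard error was derived from the fold change and the F statistic. Log2 CPM used a prior count of 2. The ratio of counts between lines has an exact binomial 95% interval. In simulated data, edgeR recovered 87, 86 and 55 of 100 genes changed by 1 on the log2 scale in OVCAR3 (13031 genes), UWB1.289 (12695) and the interaction (14248).

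The members and lists were chosen with earlier results of these data known. Named genes were the 8 members, all other metallothioneins, MTF1, SLC30A1, NR3C1, FKBP5, TSC22D3 and HMOX1, at most 4 called genes per list and comparison, and the 5 genes most correlated with MT2A and MT1E, also after subtracting group means. A result under this rule is not reported here. CDH5, COL1A1, COL3A1, LUM, PECAM1, PTPRC and WT1 are markers, and OGFOD1 and NUP93 were given levels after their values were seen. Same-numbered DMSO and olaparib libraries correlated, after subtracting group means over 9540 genes, at 0.133 to 0.224 in UWB1.289, where every pair was over 0.1 and the blocked value is given where it changed a call, and at 0.0344 to 0.165 in OVCAR3. Values in the text are from the fit without the block unless stated. Alternatives were DESeq2 1.42.0, its size factors, library totals, no count filter, an adjusted p below 0.05, the study's 2-fold rule, all 16 libraries in the fit, the replicate block, leaving out each library, and a prior count of 0.5.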

Additional observations from a re-analysis of the deposited data

Results flagged for a closer look

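Among 28 groups of 4 libraries examined for a sample standing apart by Dixon's criterion, which chance meets in about 1 of 20, 2 did so. MT1F in UWB1.289 olaparib replicate 1 had a log2 CPM of 4.58 (143 counts), with the other libraries of the group between 3.67 and 3.75. MT1G in UWB1.289 olaparib replicate 3 had a log2 CPM of 1.52 (16 counts), with the others between 2.46 and 2.56. The olaparib change of MT1X differed between the lines by 0.84 on the log2 scale (edgeR interaction test, adjusted p = 0.0165), higher with olaparib than with DMSO in 4 of 4 UWB1.289 libraries and overlapping in OVCAR3.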

How the results depend on the processing

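In UWB1.289 4 members were called, and 1 with the study's 2-fold rule (MT1G). Leaving out 1 library gave 3 to 4, and the replicate block gave 5, adding MT1E. In OVCAR3 the count was 0, but 1 (MT2A, adjusted p = 0.0957) with library totals and 0 to 1 with 1 library left out. For the difference between the lines it was 1, but 2 with the replicate block (MT1F added), 0 with the 2-fold rule and 1 to 3 with 1 library left out: 2 without UWB1.289 DMSO replicate 2 (MT1F added) and 3 without OVCAR3 olaparib replicate 4 (MT1F and MT2A added). The block changed no other call of a member. The 7 members without overlap between the lines stayed 7 throughout. Estimates near 0 changed sign: with 1 library left out, MT1X in OVCAR3 ranged from -0.034 to 0.11 (negative without olaparib replicate 1 or 4), and MT2A in UWB1.289 from -0.088 to 5.06e-04 (positive without DMSO replicate 3). MT1E passed as lower (-0.22, adjusted p = 0.0958) without UWB1.289 olaparib replicate 2. MT1G was not called in the fit of all 16 libraries (adjusted p = 0.135). A prior count of 0.5 moved the difference between the lines to 13.3 for MT1E, 9.55 for MT1A, 7.25 for MT1M and 4.71 for MT1G, since OVCAR3 was at or near 0. With library totals 1180 of 1784 called genes were higher in UWB1.289, compared with 990 of 1768. The cause of these changes was not tested. Depth limits MT1G and MT1H, and MT1A, MT1E and MT1M in OVCAR3.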
